A study of Homo sapiens with 6 samples.

Results

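HepG2 cells, an established line from a human liver tumour, were compared after 3 h with a Scutellaria baicalensis extract and without it, across all genes of a one-colour Agilent expression array. A gene entered the comparison when its brightest probe was well above background and not saturated on both arrays, which held for 13048 of the 17488 genes that had a usable probe. The 3 h array carried RNA of HepG2 cells given the extract (abbreviated ESB in the labels) at 100 µg/ml for 3 h. The control array carried RNA of HepG2 cells under a label that names no vehicle, dose or time. Both came from cells in serum-containing medium that were seeded in dishes the day before. The series holds 4 more arrays, of the same extract at 1, 6, 12 and 24 h. Each group was 1 array of 1 RNA sample, so no difference below has a replicate check or a p-value, and every value describes these arrays. The labels' extraction text also mentions mouse liver, the sample labels name HepG2 alone, and the dye in the labels is Cy5 although the files' columns are those of the green channel.

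The root of Scutellaria baicalensis is rich in flavones such as baicalin, baicalein and wogonin. Flavones are among the plant compounds known to bind the aryl hydrocarbon receptor, a ligand-activated transcription factor that pairs with ARNT on xenobiotic response elements, and CYP1A1 is its best known target in liver cells. Growth of liver cells is set by opposed programmes. FOXO factors, held out of the nucleus by insulin and AKT signalling, drive genes of growth arrest, and MYC with its partner MAX drives genes that build ribosomes.

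Values are given as relative signal, the processed signal of a probe divided by the 75th percentile of its array, and as the log2 difference of 3 h extract minus control. The 75th percentile was 1710 units on the 3 h array and 697 units on the control array, so the 3 h array was 2.45-fold brighter before scaling. The scanner called 797 probes saturated on the 3 h array and 336 on the control array, and 73.25% and 69.82% of probes were well above background. Repeated spots of a probe differed with a median SD of 0.0729 (log2) on the 3 h array and 0.0668 on the control array. The larger error lies between probes: the disagreement of 2 probes of the same gene, over 4693 genes, gave an SD of 0.47 for the log2 difference of 1 probe, which is taken as the error of each difference below. It covers probe error only, because the 2 probes share the same arrays, cultures and labellings.

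The extract array differed from the control array by little for most genes. Among the 13048 measured genes, 423 were at least 2-fold higher at 3 h (3.24% of those measured) and 386 were at least 2-fold lower (2.96%). At least 4-fold differences were fewer, with 18 genes higher and 29 lower. The quartiles of the difference were -0.33 and 0.29, the median was -0.04, and 78.0% of genes stayed within 1.5-fold. The arrays read RNA of whole cultures, so fewer cells of a kind and less RNA per cell cannot be told apart. Dim genes passed 2-fold more often: of 5 equal classes of brightness, the dimmest held 122 higher and 102 lower genes and the brightest held 15 higher and 39 lower. The split between directions depended on the background correction, since normexp with an offset left 166 genes higher and 350 lower.

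**Figure D1:**
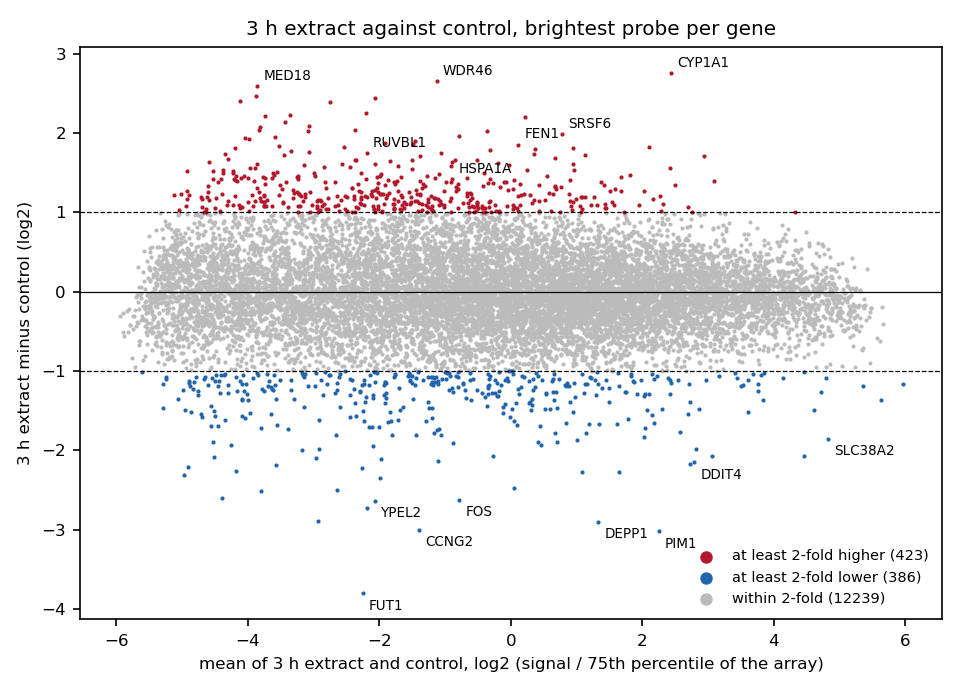
Each point is 1 of 13048 genes; the horizontal axis is the mean log2 relative signal of the 2 arrays and the vertical axis is 3 h extract minus control (log2). The 423 higher genes are red, the 386 lower genes blue, dashed lines mark 2-fold, and the labelled genes include CYP1A1 at 2.76 and FUT1 at -3.80.

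A second probe was the only further reading of a gene on these arrays, and it often gave a smaller difference. Of 103 genes whose brighter probe was at least 2-fold higher, the second probe was above 0 in 82, at least 1.5-fold higher in 54 and at least 2-fold higher in 35. Of 143 genes whose brighter probe was at least 2-fold lower, the second was below 0 in 113, at least 1.5-fold lower in 64 and at least 2-fold lower in 31. The median difference of the second probe was 0.63 in the first set and -0.44 in the second. Genes are called supported here when they had 2 or more measured probes and all of them differed by 2-fold or more in 1 direction. Of the 4693 genes with 2 or more measured probes, 32 were supported higher (0.682%) and 27 supported lower (0.575%).

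**Figure D2:**
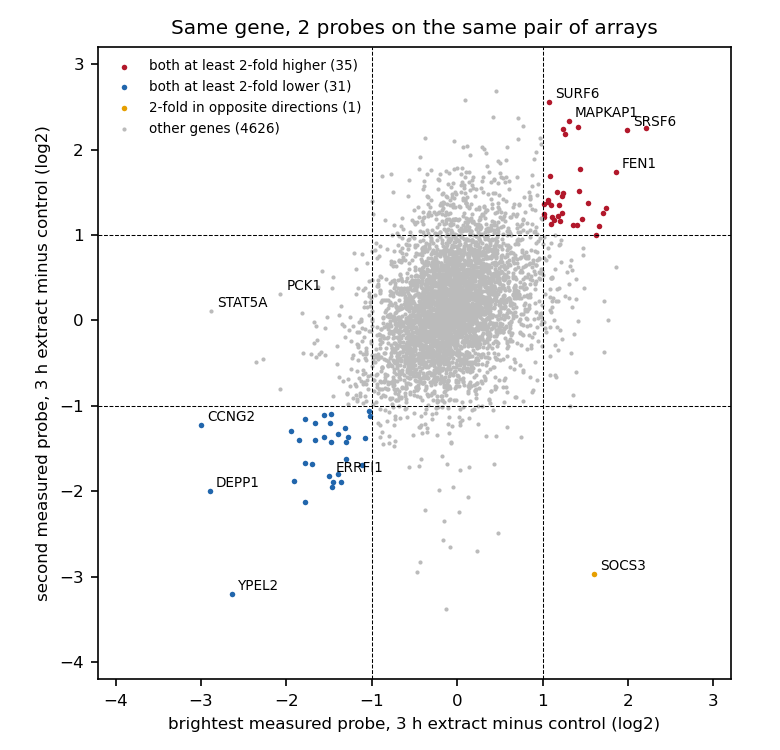
Each point is 1 of 4693 genes with 2 measured probes; the axes are 3 h extract minus control (log2) of the brightest and of the second measured probe. Both probes were at least 2-fold higher in 35 genes and at least 2-fold lower in 31, and SOCS3 alone lay past 2-fold in opposite directions.

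Of the supported lower genes, 2 rested on probes that lie on the strand opposite to their gene. ALB, the gene of serum albumin, had a gene-strand probe that was saturated on both arrays, and its 2 measured probes were at -1.91 and -1.88. The ends of the saturated probe and of one measured probe are shown because they place that probe on the other strand; capitals mark 23 letters that each shares with the reverse complement of the other.
ALB, saturated probe: gctgcaaGTCAAGCTGCCTTAGGCTTATAA
ALB, measured probe: tgtgatgTTATAAGCCTAAGGCAGCTTGAC
RPS9, a ribosomal protein gene, had opposite-strand probes at -2.12 and -1.78, and its gene-strand probe was saturated on the 3 h array. The values of these 2 genes therefore read sequence opposite to the messenger RNA and are not used as levels of ALB or RPS9. Some other genes also had probes that disagreed. SOCS3, an inhibitor of cytokine signalling, had 1 probe at 1.61 (500 units at 3 h and 67.0 in the control) and another at -2.97 (29.7 units at 3 h and 95.0 in the control). The probes of STAT5A (-2.89 and 0.11), PCK1 (-2.07 and 0.31), IRS2 (-1.35 and 0.17) and MNT (-1.65 and -0.07) also disagreed by more than 2-fold.

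CYP1A1, a cytochrome P450 enzyme of xenobiotic breakdown, had the largest positive difference of all measured genes. Its single probe had a relative signal of 14.1 at 3 h and 2.08 in the control, a log2 difference of 2.76 or 6.77-fold. Over the 10 alternative settings and the main one the difference lay between 2.74 and 2.87. Against the same control the other arrays gave 0.44 (1 h), 3.53 (6 h), 3.89 (12 h) and 3.16 (24 h), so 3 h was the first time past 2-fold. The stretch just upstream of the CYP1A1 start is shown because it holds a match to the core of the xenobiotic response element, GCGTG (capitals), beginning at position -57. It lies at chr15:74725529-74725628 on the minus strand (GRCh38.p14, RefSeq), with positions counted from the first transcribed base.
CYP1A1 promoter: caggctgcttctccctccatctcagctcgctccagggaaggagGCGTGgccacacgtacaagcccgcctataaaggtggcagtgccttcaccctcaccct
The core was searched on both strands in windows of 250 bases before to 50 after each RefSeq start, and 48.6% of the 10471 measured genes with a window held it, so a match alone marks no target.

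Aryl hydrocarbon receptor targets were mixed. Of 9 measured targets, CYP1A1 included, 2 were at least 2-fold higher, against 3.24% of all measured genes. These were CYP1A1, the marker described above, and AHRR, so beyond the marker the count adds AHRR alone. No target was at least 2-fold lower, and the median was 0.03. AHRR, the repressor of the receptor, had a relative signal of 0.0771 at 3 h and 0.0287 in the control, a difference of 1.42 that was 0.22 with normexp background correction. UGT1A6, a glucuronosyltransferase, was at 0.97 on its brightest probe and 2.14 on the other, and the brightest probe's accession is shared with another gene. NQO1 was at 0.46, TIPARP at -0.08 and CYP1A2 at 0.03, all within the error of a probe, and CYP1B1 and ALDH3A1 were not well above background on both arrays. Of the receptor complex, AHR itself was at -0.64 and ARNT at -0.65 and -0.58 on its probes. HSP90AB1, a chaperone of the unliganded receptor, was at 0.29 and 0.23 on 2 probes and at 1.75 on the third. The probe at 0.29 read 55000 units at 3 h, above the lowest signal called saturated on that array (51400 units).

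A joint list of FOXO targets and of growth-arrest genes had the largest share of members at least 2-fold lower among the 40 examined. Its members were not separated into those that FOXO factors drive and others. Of 22 measured members, 10 were at least 2-fold lower, against 2.96% of all measured genes, and none was at least 2-fold higher. The median was -0.75 against -0.04 over all genes. CCNG2, an atypical cyclin linked to cell cycle exit, had a relative signal of 0.134 at 3 h and 1.07 in the control (-3.00), and its second probe was at -1.23. DEPP1, a FOXO target known from starvation and hypoxia, had 0.918 at 3 h and 6.84 in the control (-2.90), with -1.99 on the second probe. YPEL2, of the Yippee family of small zinc-binding proteins, had 0.0959 at 3 h and 0.596 in the control (-2.64), with -3.20 on the second. All 3 genes were lower on each measured probe, and they headed the supported lower genes.

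FOXO1 itself was lower on both probes, at -1.56 and -1.37, with relative signals of 2.58 at 3 h and 7.59 in the control on the brighter one. KLHL24, an adaptor of a ubiquitin ligase, was supported too, at -1.94 and -1.30. BTG1, an antiproliferative cofactor of messenger RNA decay, was at -1.87 and CITED2, a transcriptional coregulator, at -1.27, each on 1 probe. CDKN1B, which encodes the CDK inhibitor p27, was at -1.07 and -0.94, and BCL6, a repressor, was at -1.04. PIK3IP1 (-0.85), YPEL5 (-0.65) and YPEL3 (-0.64) were lower by less than 2-fold. Of the other members, TXNIP was at 0.39, GADD45A at 0.43, PDK4 at 0.07, SESN1 at -0.20, FOXO3 at -0.21 and ARRDC4 at 0.79. FBXO32, SESN3 and ARRDC3 were not well above background on both arrays. The list was assembled with earlier results of these arrays known, so its count describes it and is no independent evidence.

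The forkhead letters GTAAACA, searched on both strands, occurred in the promoter window of 4 of 21 members (19.0%), against 2.25% of all measured genes. The 4 were DEPP1 at -2.90, BTG1 at -1.87, YPEL3 at -0.64 and TXNIP at 0.39. FOXO targets were put on the list by name, so a raised share can come from that choice. The share therefore says nothing about the response at 3 h. Among the supported lower genes with a window, ALB and RPS9 aside, 2 of 22 held the letters, DEPP1 and HBP1. HBP1, a repressor of cell cycle genes, was at -1.45 and -1.90 on its probes. The 2 windows are shown with the motif in capitals, at position -180 in DEPP1 (chr10:44978930-44979009, minus strand, GRCh38.p14) and -173 in HBP1 (chr7:107168803-107168882, plus strand, GRCh38.p14), both from RefSeq.
DEPP1 promoter: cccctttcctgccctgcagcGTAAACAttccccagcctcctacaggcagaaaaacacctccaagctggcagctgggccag
HBP1 promoter: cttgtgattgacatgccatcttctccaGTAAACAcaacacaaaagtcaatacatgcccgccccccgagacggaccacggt
A match of letters is a description of the window and does not show that a factor binds there.

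Immediate early genes are switched on by serum and growth factors within minutes. Of 20 measured AP-1 and early growth response factors, 5 were at least 2-fold lower, against 2.96% of all measured genes. No member was at least 2-fold higher, and the median was -0.54. FOS had a relative signal of 0.234 at 3 h and 1.44 in the control (-2.62). FOSB was at -1.30, EGR1 at -1.11 (3.96 at 3 h and 8.54 in the control) and EGR2, dim on both arrays, at -1.23. JUND was at -1.36, but its signals of 52600 units at 3 h and 55000 in the control lay at the level where probes began to be called saturated (51400 units on the 3 h array and 54400 on the control array). With quantile normalization JUND was at -0.78. JUN was at -0.74. ATF3 (-0.40), NR4A1 (-0.31) and IER5 (-0.04) lay within the error of a probe, and 6 members were above 0, with FOSL1 at 0.95 and BTG2 at 0.58.

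The Kruppel-like factors, zinc finger regulators of growth and metabolism, were above 0 in 1 of 14 cases, against 46.6% of all measured genes, with a median of -0.61. KLF16 (-0.03), KLF2 (-0.09) and KLF10 (-0.17) were within the error of a probe. KLF15 (-1.70), KLF6 (-1.18), KLF9 (-1.15) and KLF3 (-1.12) were at least 2-fold lower, and the 2 other probes of KLF6 were at -1.71 and -0.77. KLF4, at 0.80, was the exception. Feedback inhibitors of MAP kinase signalling were above 0 in 0 of 14 measured cases, against 46.6% of all measured genes, with a median of -0.53. DUSP2 (-0.08), DUSP4 (-0.09) and SPRY4 (-0.13) were within the error of a probe. ERRFI1, which binds and blocks the EGF receptor, had 14.6 at 3 h and 41.1 in the control, and both probes were lower (-1.50 and -1.83). The phosphatases DUSP1 and DUSP10 were at -1.18 and -1.19, DUSP6 at -0.76 and SPRY2 at -0.44.

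Targets of the hypoxia-inducible factors were at least 2-fold lower in 6 of 23 measured cases, against 2.96% of all measured genes. No target was at least 2-fold higher, and the median was -0.36. ANKRD37, an ankyrin repeat protein gene, had 0.437 at 3 h and 2.42 in the control (-2.47). DDIT4, which encodes the mTORC1 inhibitor REDD1, had 3.29 at 3 h and 14.6 in the control (-2.15). MXI1 (-1.33), the lipase inhibitor ANGPTL4 (-1.29), EGLN3 (-1.07) and PFKFB3 (-1.07) made up the rest, and the other 3 probes of PFKFB3 ranged from -1.37 to 0.23. The glycolytic members SLC2A1, LDHA and PGK1 were saturated and gave no value, while HK2 was at -0.43 and CA9 at 0.28. MXI1 counts under the MYC and MAX network as well.

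Genes of the ATF4 response, which supplies amino acids and one-carbon units, were below 0 in 15 of 16 measured cases with a median of -0.49. Of all measured genes, 46.6% were above 0. CEBPB, a leucine zipper factor of hepatocytes, was at -2.07 on its bright probe (10.8 at 3 h and 45.2 in the control) and at -0.80 on a dim one. VLDLR was at -1.25 and MTHFD2, of mitochondrial folate metabolism, at -1.09. CTH was at -0.93 and PSAT1 at -0.62, and ATF5 alone was above 0, at 0.73. SLC38A2, a neutral amino acid transporter not on the list, was supported lower at -1.85 and -1.40, with 14.9 at 3 h and 53.8 in the control on the brighter probe. ATF4, ASNS and TRIB3 were saturated.

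Of the MYC and MAX network, 3 of 13 measured members were at least 2-fold lower, against 2.96% of all measured genes. All 3 encode MAX partners that oppose MYC. MXD1 was supported at -1.36 and -1.89, MXI1 was at -1.33, and MNT was at -1.65 on 1 probe and -0.07 on the other. MYC was at -0.29 and MAX at -0.35, while MXD4 was at 0.77 on its brightest probe and at -0.58 and 0.35 on the others. In the circadian clock list, 4 of 17 were at least 2-fold lower, against the same 2.96%. The repressors BHLHE40 (0.706 at 3 h and 2.70 in the control, -1.93) and NFIL3 (-1.51) were the lowest. RORA (-1.08) and PER3 (-1.07, with -0.47 on its other probe) were the other 2. BMAL1 was at -0.11, CLOCK at -0.07, PER1 at 0.05, PER2 at -0.39, CRY1 at 0.00, CRY2 at 0.34, NR1D1 at -0.64 and NR1D2 at 0.54.

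Replication-dependent histone genes, whose transcripts lack a poly(A) tail, were at least 2-fold lower in 12 of 58 measured cases. Over all measured genes the share was 2.96%. No histone gene was at least 2-fold higher, and their median was -0.39. Of the 12, 10 were histone H4 genes, from -1.29 for H4C12 and H4C11 to -1.09 for H4C2. Relative signals of H4C13 were 27.1 at 3 h and 61.6 in the control. Its unscaled signals were 46100 and 42700 units, below the lowest called saturated on the same array (51400 and 54400 units). H4C13, H4C2 and H2AC12 were past 2-fold in 8 of the 10 alternative settings, with H4C13 as near to 0 as -0.78 and H4C2 as -0.83. H4 genes are nearly identical in coding sequence, so their probes may read each other's transcripts and are not separate observations. The replication genes themselves were spread about 0, with 15 of 30 measured members above and 15 below it.

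**Figure D3:**
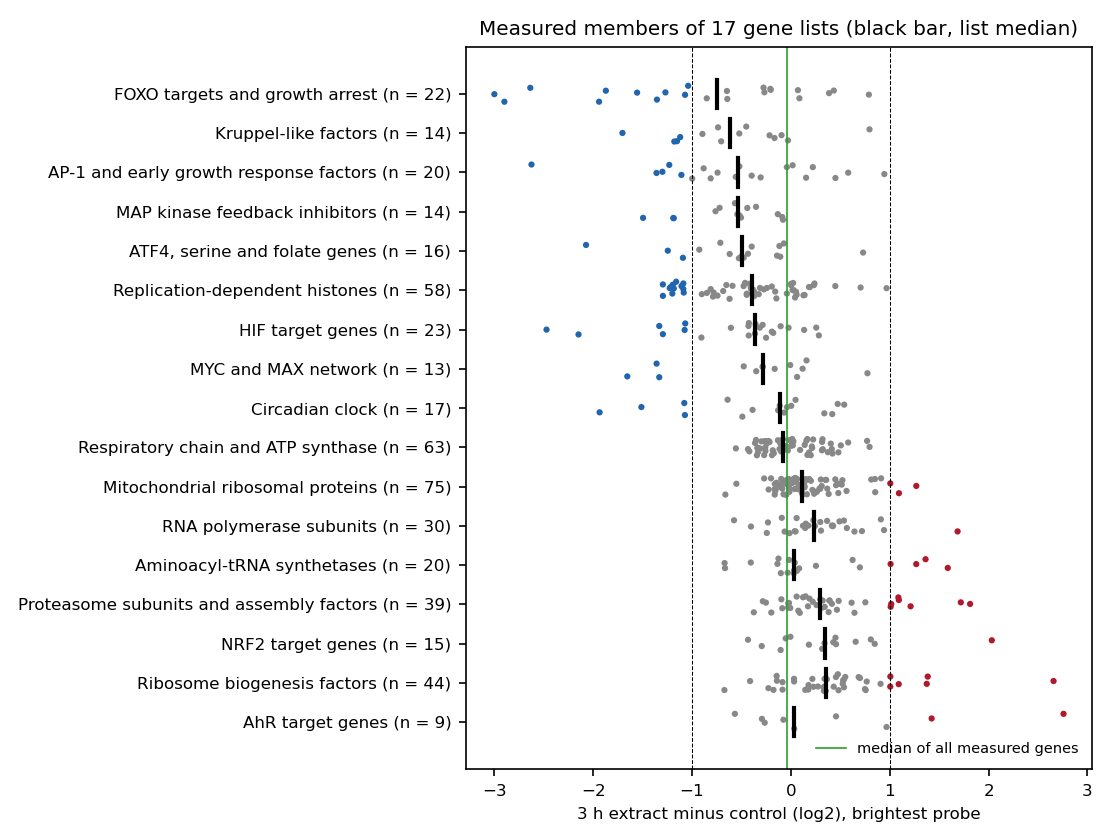
Each point is a measured member of a gene list, placed by 3 h extract minus control (log2) of its brightest probe; the black bar is the list's median and the green line the median of all 13048 genes (-0.04). The joint list of FOXO targets and growth-arrest genes has 10 of 22 members at least 2-fold lower (blue). The ribosome biogenesis list has 6 of 44 at least 2-fold higher (red).

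The other supported lower genes had varied roles. NAGS, which makes the activator of the urea cycle's first enzyme, was lower on 3 probes (-1.78, -1.67 and -1.03). TMCC1, an endoplasmic reticulum membrane protein, was lower on 3 probes (-1.31, -1.63 and -1.18), as was the centrosomal gene CEP170 (-1.28, -1.36 and -1.55). GRPEL2, a cochaperone of mitochondrial protein import, was at -1.67 and -1.40, and ZNF609 at -1.48 and -1.43. PROSER2, POGZ, PANX2 and ZC3H6 completed the 20 with the lowest means, and their brightest probes lay between -1.67 and -1.11. Among genes with a single measured probe, FUT1, a fucosyltransferase of blood group antigens, was lowest with 0.0561 at 3 h and 0.781 in the control (-3.80). PIM1, a kinase gene induced by cytokine signalling, had 1.67 at 3 h and 13.6 in the control (-3.02). CRCT1 and MYL10 were at -2.73 and -2.61.

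The 20 supported higher genes with the highest means held several genes of RNA processing, ribosome synthesis and secretion, without a single theme. SRSF6, a splicing factor of the SR family, had 3.41 at 3 h and 0.861 in the control (1.99), and 2.22 on its other probe. FEN1, the nuclease that trims Okazaki fragments, had 2.05 at 3 h and 0.567 in the control (1.86), and 1.74 on the other. HSPA1A, which encodes the inducible HSP70, was at 1.42 and 2.27, and its probes are shared with the near-identical HSPA1B. MAPKAP1, a subunit of mTORC2, was at 1.31 and 2.34. In these 4 genes both probes read higher on the 3 h array.

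Nucleolar genes among the supported were SURF6 (1.08 and 2.55), PES1 (1.09 and 1.69) and UBTF, an RNA polymerase I factor (1.66 and 1.11). RUVBL1, an ATPase of chromatin remodelling and of small nucleolar ribonucleoprotein assembly, was at 1.75 and 1.32. Genes of the secretory route were TMED2, a cargo receptor (1.53 and 1.38), SRP68, of the signal recognition particle (1.23 and 1.45), and PIGU, of the GPI transamidase (1.42 and 1.51). PGS1, which makes a precursor of cardiolipin, was higher on 3 probes (1.26, 2.18 and 1.01). HCCS, which attaches haem to cytochrome c, was at 1.19 and 1.35, and ATAD3B at 1.71 and 1.25. IGFBP3, a carrier of insulin-like growth factors, had 2.42 at 3 h and 0.878 in the control (1.46), and 1.19 on its other probe. ANAPC7, RBM23, GPAT4, CD2BP2 and CANT1 were the remaining 5, with brightest probes between 1.17 and 1.62. With normexp background correction RBM23 and PGS1 were at 0.54 and 0.57, and 10 genes in all were supported higher, against 32 in the main setting. The brightest probes of SURF6, ANAPC7, PES1 and CANT1 were past 2-fold in 9 of the 10 alternative settings, with SURF6 as low as 0.87.

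**Figure D4:**
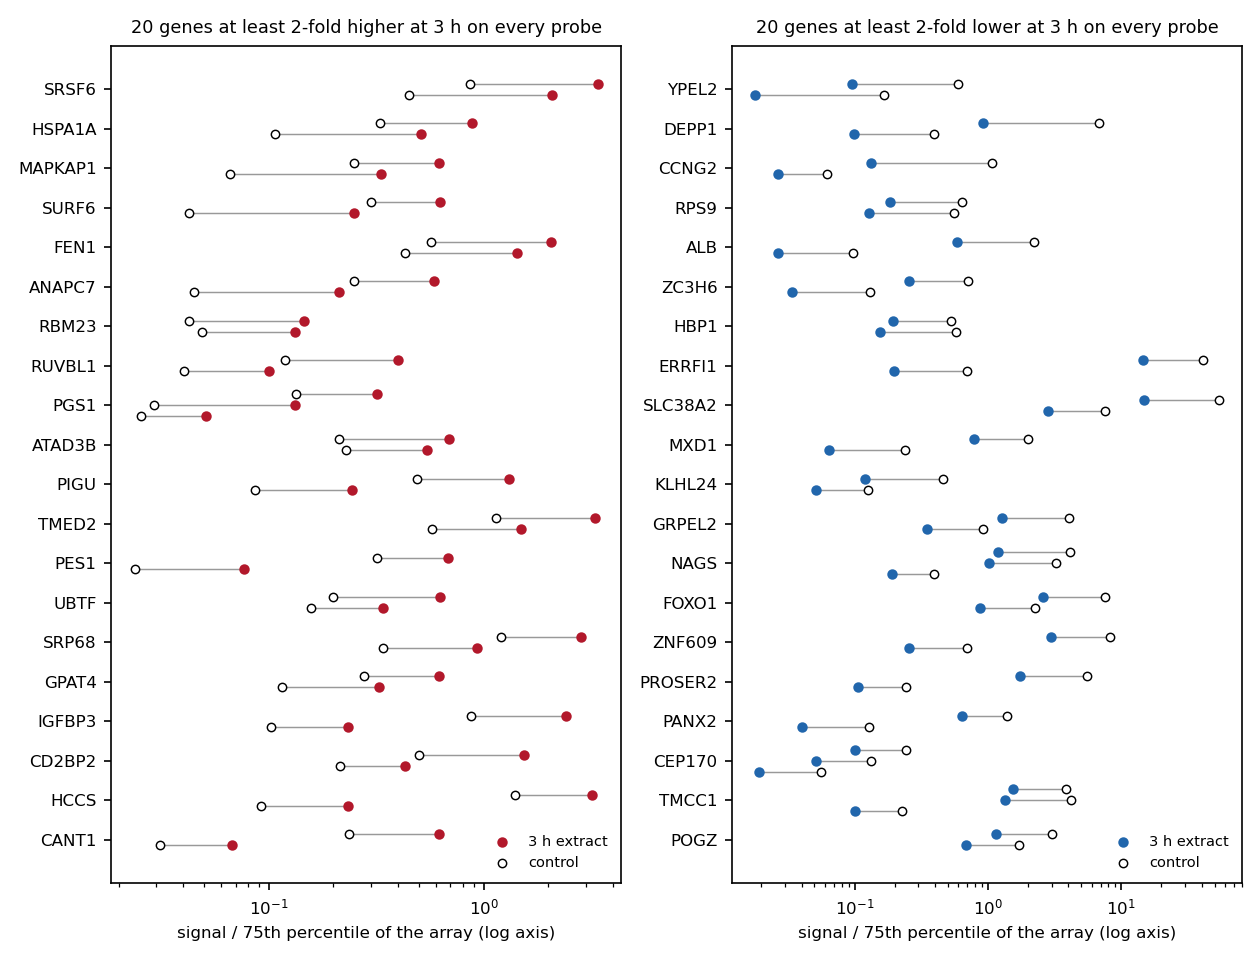
Relative signal (signal divided by the array's 75th percentile, log axis) of each measured probe of the 20 genes with the largest mean differences among the supported, at 3 h (filled) and in the control (open). In each gene every probe differs by 2-fold or more in 1 direction; ALB and RPS9 are read by opposite-strand probes.

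Ribosome biogenesis factors were above 0 more often than genes at large, of which 46.6% were. Of 44 measured members, 36 were above 0, and the median was 0.36. At least 2-fold higher were 6 members, against 3.24% of all measured genes, and none was at least 2-fold lower. WDR46, of the small subunit processome, had 1.15 at 3 h and 0.182 in the control (2.66). PNO1, a partner of the NOB1 nuclease in the last step of small subunit maturation, had 1.53 at 3 h and 0.586 in the control (1.38), and RRP12, an export factor of preribosomal particles, was at 1.37. PES1 (1.09), WDR43 (1.01) and LTV1 (1.01) followed, while NOC2L (-0.67) and DDX10 (-0.41) were lower. LTV1 and WDR43 lay just at the 2-fold line and were below it in 3 and 2 of the 10 alternative settings. NOP56, FBL, NCL and NPM1 were saturated.

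The E-box CACGTG, the palindrome bound by MYC with MAX, occurred in the promoter window of 14 of 36 members with a window (38.9%), against 9.86% of all measured genes. The core GCGTG, which cannot lie inside the E-box, occurred in 25 of the 36 (69.4%), against 48.6% of all measured genes. The 14 genes with the letters had a median of 0.65 and included WDR43, WDR46, PES1, PNO1 and LTV1, that is 5 genes at least 2-fold higher. The 22 without had a median of 0.25 and none at least 2-fold higher, and RRP12 had no window. This split was made after the values were seen and has no test. The E-box lay close to the start in most of these genes, and 3 windows are shown with it in capitals, beginning at position 10 in PNO1, 4 in WDR43 and 14 in PES1. The windows of PNO1 and PES1 also hold GCGTG, left in lower case. They lie at chr2:68157828-68157907 (plus strand), chr2:28894607-28894686 (plus strand) and chr22:30591891-30591970 (minus strand) of GRCh38.p14, from RefSeq.
PNO1 start region: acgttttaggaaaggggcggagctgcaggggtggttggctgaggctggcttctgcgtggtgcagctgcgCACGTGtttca
WDR43 start region: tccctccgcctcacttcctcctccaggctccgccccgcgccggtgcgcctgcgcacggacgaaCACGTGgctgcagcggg
PES1 start region: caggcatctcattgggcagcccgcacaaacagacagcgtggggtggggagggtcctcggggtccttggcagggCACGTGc

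RNA polymerase subunits had a median of 0.24, with 23 of 30 above 0, against 46.6% of all measured genes. POLR1C, shared by polymerases I and III, was the only member past 2-fold (2.87 at 3 h and 0.892 in the control, 1.69). POLR1E was at 0.94 on its brightest probe and 0.03 on the other. Of 75 mitochondrial ribosomal proteins, 3 were at least 2-fold higher, MRPS23 (1.27), MRPS5 (1.09) and MRPS7 (1.01), a share near the 3.24% of all measured genes, and the median was 0.11. Respiratory chain genes had no member of 63 past 2-fold and a median of -0.08, and 19 more were saturated. Aminoacyl-tRNA synthetases had a median of 0.04, although CARS1 (1.59), YARS1 (1.36), QARS1 (1.27) and KARS1 (1.01) were at least 2-fold higher. KARS1 was below 2-fold in 5 of the 10 alternative settings.

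Proteasome genes were at least 2-fold higher at 3 h in 7 of 39 measured cases, against 3.24% of all measured genes. No proteasome gene was at least 2-fold lower, and the median was 0.30. PSMC5, an ATPase of the regulatory particle, had 3.60 at 3 h and 1.02 in the control (1.81), and PSMD13, of the lid, had 3.95 at 3 h and 1.20 in the control (1.72). PSMD2 (1.21), PSMB9 (1.09), PSMG3 (1.09), PSMD6 (1.02) and PSMA7 (1.01) were the others. Targets of NRF2, the factor that answers electrophiles, had a median of 0.34, but only OSGIN1 was past 2-fold, at 1.58 at 3 h and 0.385 in the control (2.03). GCLM was at 0.81, SRXN1 at 0.66, HMOX1 at 0.43 and TXNRD1 at 0.18. Of 15 measured NRF2 targets, 10 were above 0, against 46.6% of all measured genes, and 5 below it, with SLC7A11 lowest at -0.43. A further 6 were saturated. Of 14 measured heat shock proteins, HSPA1A and HSPA6 (1.56) were at least 2-fold higher, against 3.24% of all measured genes. The median of the 14 was 0.10, and HSPA6 was at 0.21 with normexp. Of 17 measured endoplasmic reticulum folding genes, 1 was at least 2-fold higher, HYOU1 at 1.13, against 3.24% of all measured genes. At least 2-fold lower were 3, PDIA4 (-1.29), HERPUD1 (-1.02) and XBP1, against 2.96%. The list's median was 0.21. HSPA5 was at 0.84 on its brightest probe and -0.17 on a second. XBP1 was at -1.16 on 1 probe and 0.38 on the other. The first probe read 70800 units at 3 h and 64700 in the control. Both signals lay above the lowest called saturated on the same array (51400 and 54400 units).

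Liver functions showed few differences that could be read. Of 20 secreted hepatocyte proteins, 16 were saturated, among them ALB, AFP, TTR and SERPINA1. The brightest probes of the 4 others, FGB, FGA, APOC3 and HPX, lay between -0.25 and 0.35, and the 2 other probes of FGA were at -0.65 and 1.10. Hepatocyte transcription factors had a median of -0.31. NR0B2, which encodes the bile acid-induced repressor SHP, had 8.94 at 3 h and 22.9 in the control (-1.36). HNF4A was at 0.82, CEBPA at 0.80, FOXA2 at -0.89 and NR1H4, the bile acid receptor, at -0.74. PPARGC1A, a coactivator of gluconeogenesis, was at -1.17 on its brightest probe and -0.28 on the other. Of the cholesterol synthesis genes, NSDHL was at 1.61 and MVD at 0.93. None of 17 fatty acid oxidation genes was past 2-fold, and their median was 0.01.

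Signalling and cell cycle lists had scattered members past 2-fold. In the JAK-STAT list PIM1 was lowest, and SOCS1 was at -1.06 with -0.32 on the other probe. NFKBIZ, an atypical inhibitor of NF-kappaB, was at -1.10, TNFAIP3 at -0.63 and RELA at 0.64. Among WNT targets, SOX9 (-1.61) and ZNRF3 (-1.16, with -0.47 on the other probe) were lower and NOTUM (1.44) higher. Of the TGF-beta and BMP list, HAMP, which encodes hepcidin, was at -1.07, and of the BCL2 family BIK was at -1.04 and BCL2L1 at 1.03, with 0.31 on the other probe of BCL2L1. The p53 target AEN (1.32) was at least 2-fold higher and TP53INP1 (-1.18) lower, with CDKN1A at 0.73. MDM2 was at 1.11 on its brightest probe and 0.23 on the other, and was past 2-fold in 7 of the 10 alternative settings. AURKB, a mitotic kinase, had 1.49 at 3 h and 0.430 in the control (1.79). Of 34 mitosis genes, 27 were below 0 and 7 above it, while 46.6% of all measured genes were above 0. ORC1 was at 1.17 (0.75 with normexp) and E2F2 at -1.14, with -0.37 on its other probe. MED18, a Mediator subunit dim on both arrays, was at 2.59 (1.02 with normexp). Of single-probe genes, ETNK2 was at 2.47 (0.99 with normexp) and MAB21L2 at 2.44 (1.54 with normexp).

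Some genes were above background on 1 array only and have a bound in place of a difference. The bound divides the bright array's relative signal by the lowest relative signal among probes well above background on the other array, or by the probe's own where that is higher. At 3 h alone, 656 genes were measured, 76 of them with a bound of at least 2-fold, and in the control alone 178, of which 96 had such a bound. The 3 h array was the brighter one, and the part of this in the 2 counts was not tested. Higher at 3 h were RP1 (at least 10.5-fold), CHRDL1 (at least 8.43-fold), GPR26 (at least 8.05-fold) and TBCCD1 (at least 4.76-fold). Lower at 3 h were RNF182 (at least 46.6-fold), LCA5L (at least 24.3-fold), TENT5C (at least 15.3-fold) and NEU3 (at least 11.0-fold). RNF182, a ubiquitin ligase gene, had 5.78 units at 3 h and 405 in the control.

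The values of the other arrays, set against the same control, show where 3 h stood for its leading genes. CCNG2 was at -1.05 (1 h), -3.00 (3 h), -2.48 (6 h), -0.72 (12 h) and 0.00 (24 h). DEPP1 had -1.27 (1 h), -2.90 (3 h), -2.37 (6 h), -1.17 (12 h) and -1.04 (24 h). The splicing factor gene SRSF6 had 1.42 (1 h), 1.99 (3 h), 0.42 (6 h), 0.43 (12 h) and 1.18 (24 h). CYP1A1 was higher at 6, 12 and 24 h than at 3 h, whereas the other 3 genes were farthest from the control at 3 h. WDR46 was past 2-fold at every time, from 1.82 at 1 h to 3.41 at 24 h. Since the control array is common to all differences, they are not independent.

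**Figure D5:**
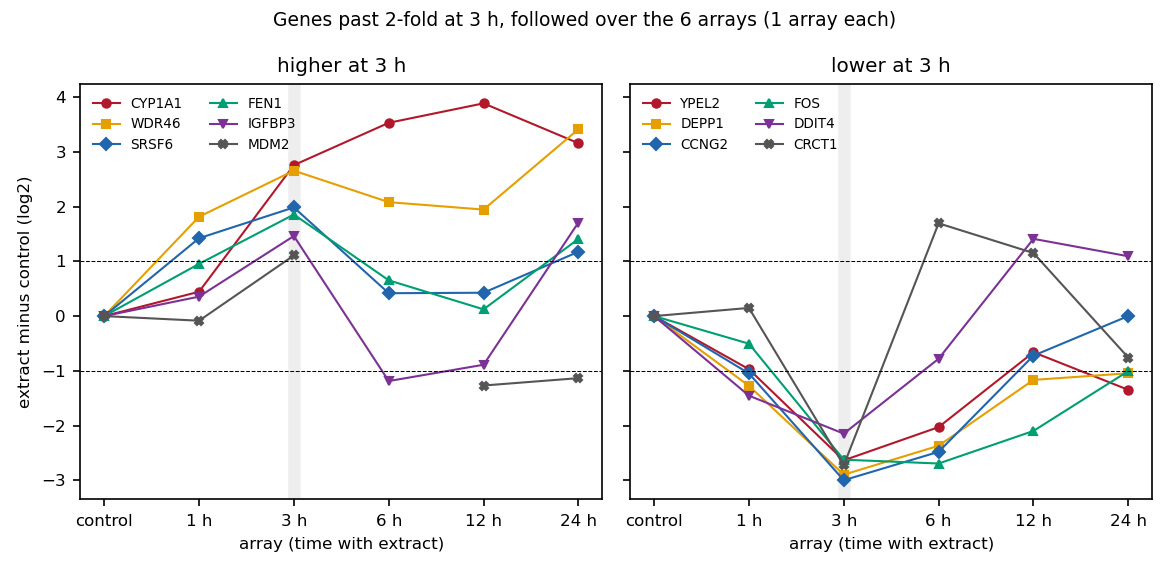
Extract minus control (log2) of 12 genes past 2-fold at 3 h, on the control array (0 by definition) and at 1, 3, 6, 12 and 24 h, 1 array each; the grey band marks 3 h and dashed lines mark 2-fold. CYP1A1 passes 2-fold first at 3 h, and CCNG2 and DEPP1 lie lowest there, at -3.00 and -2.90; a missing point was not measured on that array.

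Markers of other cell types were partly not above background. Of 10 fibroblast markers 7 were not well above background on both arrays, of 10 endothelial markers 4 and of 12 blood markers 4. COL1A1, COL3A1, CDH5, PTPRC and HBB were not well above background on either array. The brighter ones were ACTA2 (5.00 at 3 h and 6.48 in the control), LYZ (4.21 at 3 h and 2.84 in the control), CD79A (2.98 at 3 h and 2.96 in the control) and THY1 (1.67 at 3 h and 1.69 in the control). CLDN5, at -1.30, was the only marker past 2-fold. Their part in the other differences was not tested.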

How the data were processed

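RNA of HepG2 cells was read on one-colour arrays, 1 array a group. Per the file headers, the authors' scanner files hold intensity values of 1 channel, already corrected for background by the scanner software and not normalized between arrays; the deposited value table also holds linear intensity. The software's version is not given in the sources used here. Of 41000 probes, 105 marked as outlier spots on any array were left out, as were 1639 control spots an array. The spots of a probe were averaged, and log2 signal minus the array's 75th percentile was compared, 3 h minus control. A RefSeq table (GRCh38.p14) gave 26810 probes 1 symbol, 14170 none and 20 several. A gene was represented by its probe of highest mean signal on the 6 arrays, and counted when well above background and unsaturated on both. Python 3.11.15 with pandas 2.3.3 and R 4.3.3 with limma 3.58.1 were used. The counting was tested on simulated data.

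Named genes were CYP1A1, the 20 highest and 20 lowest supported genes by mean, the 5 highest and 5 lowest single-probe genes, up to 4 members of each of 40 lists by size of difference, with any member past 2-fold, and the 4 largest bounds a side. Some of these genes are not reported here. The members and lists were chosen with earlier results of these data known. A probe was called opposite-strand where its listed coordinates run against its gene's strand in the RefSeq table, which held for 204 probes; no source used here names the build of those coordinates, and they are not printed. Alternatives were quantile, cyclic loess and median scaling, normexp background correction, the authors' deposited table, other ways to pick a gene's probe, and leaving out dim probes. Leaving out opposite-strand probes and probes in the saturated range was chosen after seeing the data.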

Additional observations from a re-analysis of the deposited data

Results flagged for a closer look

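A few of the genes named above lay at least 2-fold to one side of the control at 3 h and at least 2-fold to the other side at another time; with 1 array a time and 1 shared control, none of these differences between times was tested. DDIT4 was at -2.15 at 3 h and at 1.41 at 12 h and 1.09 at 24 h. CRCT1, on a single dim probe, was at -2.73 at 3 h, 1.70 at 6 h and 1.15 at 12 h. EGR2, also dim, was at -1.23 at 3 h and 1.39 at 6 h. IGFBP3 was at 1.46 at 3 h and -1.19 at 6 h. AEN was at 1.32 at 3 h and -1.08 at 6 h. MDM2 was at 1.11 at 3 h, -1.27 at 12 h and -1.13 at 24 h. The single-probe SD of these differences was 0.47 (3 h), 0.78 (6 h), 0.69 (12 h) and 0.70 (24 h). The 6 h array was the dimmest, with 73.25% of probes well above background at 3 h and 49.51% at 6 h.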

How the results depend on the processing

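Of 10 alternatives, 8 gave counts of genes past 2-fold and of supported genes, where these were computed, within 1.5 times those reported. Normexp background correction, under which the median of all genes was -0.15 against -0.04, gave 166 genes higher and 10 supported higher; the lower counts were 350 and 26. Without dim probes 274 genes were higher, and 18 were supported higher and 14 supported lower. The mean of all measured probes turned SOCS3 to -0.68. The other single genes past 2-fold kept their direction, as did the list medians clearly away from 0. Of 2049 gene values, 40 moved by more than the single-probe SD. All 40 list medians moved by less than that SD, which is larger than most of these medians. List medians near 0 were not judged for direction, and some changed sign between settings. Endoplasmic reticulum folding ranged from -0.07 to 0.21, the respiratory chain from -0.10 to 0.13 and secreted hepatocyte proteins from -0.12 to 0.22. Of 136 named genes past 2-fold, 89 stayed so in each alternative that measured them. XBP1 was at -0.06 and JUND at -0.78 with quantile normalization. The cause of these shifts was not tested. No paired analysis was possible because each group holds 1 array. For the same reason no replicate could be left out, and the number of arrays limits the precision.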
